A study of Mus musculus with 9 samples.

Results

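Loci that carry a microRNA or small nucleolar RNA (snoRNA) gene were examined in the RNA-seq of mouse fetal brain after early prenatal EtOH exposure. A locus was counted when any symbol in its comma-separated gene name began with Mir and a digit, with Mirlet, with Snora or Snord, or with Scarna. This rule used names only and took 765 of the 27095 loci of the table. Of these, 80 were joined loci, in which a small RNA gene shares its expression value with other genes, and 685 were loci of small RNA genes alone. Among the joined loci, 75 name a host gene or host transcript and 5 join only small RNA genes. Of the loci counted as alone, 1 (Mir143hg) matched through the symbol of a host transcript and not of a microRNA.

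The animals were wild type C57BL/6 fetuses (C57BL/6J in the study's methods) on gestational day 17, and every group held 3 fetuses. Dams of the exposed groups received 2.9 g/kg EtOH by intraperitoneal injection on gestational day 7, and dams of the control group received lactated Ringer's solution. Exposed fetuses were sorted by whether they had ocular or craniofacial defects, into EtOH-exposed affected and EtOH-exposed unaffected groups, below called affected and unaffected. The tissue is fetal brain by the labels and cortex by the study's methods. The paper reports that most of its affected samples were female. The sex of the sequenced fetuses is not given in the sources used here, and the model exposes the embryo on 1 day only. All 6 cortical projection neuron markers and all 6 cortical progenitor markers passed a mean of 1 FPKM, the number of fragments per kilobase of exon scaled to the mapped fragments of the library. The summed level of 5 choroid plexus markers was 995 FPKM in the control, 1320 in the unaffected and 1109 in the affected group, and that of 4 blood markers was 5812, 7517 and 3647 FPKM. Most of the choroid plexus sum was Ttr, at 970, 1291 and 1077 FPKM. Otx2 and Folr1 had the order of Ttr, and Clic6 and Aqp1 were highest in affected. Most of the blood sum was the Hbb locus, at 5357, 6924 and 3277 FPKM, and the other blood loci had the same order. In such bulk tissue, fewer cells of a type and less RNA per cell cannot be told apart.

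MicroRNAs are cut from hairpins in longer primary transcripts by Drosha with Dgcr8 and then by Dicer1, and the mature strand guides Argonaute proteins to messenger RNAs through its seed. Many microRNA hairpins lie in introns or exons of host genes. Box C/D snoRNAs guide the methylation of ribosomal RNA, H/ACA snoRNAs guide the change of uridine to pseudouridine, and scaRNAs do similar work on spliceosomal RNAs in Cajal bodies. Most mouse snoRNAs are processed from introns of host genes, many of which encode ribosomal proteins or have no protein product. In the developing brain, miR-9 and miR-124 are known for their part in neuronal differentiation, and miR-132 for its induction by neuronal activity.

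The libraries were read as pairs of 50 bases, whereas the 857 mature microRNA sequences matched to the loci are 16 to 27 bases long. The values below are therefore not read as mature microRNA but as precursor, host or overlapping RNA, and which of these gave the reads was not tested. The mature sequences of the microRNAs whose loci carry the results are given first, from RefSeq on GRCm38.p6, 5′ to 3′, with the seed (bases 2 to 8) in capitals. miR-9 belongs to a host transcript with nearly equal values in the 3 groups, and miR-22, miR-343 and miR-1247 belong to joined loci with large differences.
miR-9-5p: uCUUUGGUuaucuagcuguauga
miR-22-3p: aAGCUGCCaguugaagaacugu
miR-343: uCUCCCUUcaugugcccaga
miR-1247-5p: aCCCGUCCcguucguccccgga

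miR-29b and miR-29c share the seed AGCACCA, and their genes Mir29b-2 and Mir29c lie in 1 joined locus. The other miR-29b gene, Mir29b-1, is a locus alone at 0 in every group. miR-132 and miR-212 are neighbours on chromosome 11 and share the seed AACAGUC. They are shown because their loci were at or near 0 in some groups and well above it in others.
miR-29b-3p: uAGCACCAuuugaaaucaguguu
miR-29c-3p: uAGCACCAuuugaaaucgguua
miR-132-3p: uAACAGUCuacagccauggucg
miR-212-3p: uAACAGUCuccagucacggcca

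miR-17, miR-93 and miR-106b carry the seed AAAGUGC, which 6 microRNA symbols of the loci share, and miR-25 lies beside miR-93 and miR-106b in the Mcm7 gene but has another seed. The let-7 seed GAGGUAG is shared by 12 symbols. These microRNAs are shown because the loci of Mir17, Mir93, Mir106b, Mir25, Mirlet7a-1, Mirlet7b and Mirlet7c-2 had a value in 1 group only. Further loci of let-7a and let-7c, Mirlet7a-2 and Mirlet7c-1, were at 0 in every group.
miR-17-5p: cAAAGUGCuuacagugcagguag
miR-93-5p: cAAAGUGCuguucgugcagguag
miR-106b-5p: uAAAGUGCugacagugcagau
miR-25-3p: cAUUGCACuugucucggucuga
let-7a-5p: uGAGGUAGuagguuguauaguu
let-7b-5p: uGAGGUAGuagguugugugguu
let-7c-5p: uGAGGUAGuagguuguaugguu

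Among the snoRNAs, Snord33 and Snord45c are joined with their hosts, Snord104 had a high value in all groups, and Snord68 and Snord42a had high values in some groups only. Their sequences come from the GENCODE M21 transcripts on GRCm38 as DNA letters, 5′ to 3′, with the first match to the C box letters TGATGA and the last match to the D box letters CTGA in capitals, searched on the transcript's own strand. TGATGA was found in 74 of 98 GENCODE Snord transcripts (75.5%) and in 0 of 42 Snora transcripts. CTGA was found in all 98 Snord transcripts and in 23 of 42 Snora transcripts (54.8%). Snord42a held no match to TGATGA in these letters.
Snord33: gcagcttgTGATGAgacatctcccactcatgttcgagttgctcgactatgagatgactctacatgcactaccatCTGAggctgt
Snord45c: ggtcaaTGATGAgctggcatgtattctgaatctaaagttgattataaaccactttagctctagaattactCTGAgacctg
Snord104: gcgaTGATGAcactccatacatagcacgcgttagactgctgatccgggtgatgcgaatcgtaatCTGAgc
Snord68: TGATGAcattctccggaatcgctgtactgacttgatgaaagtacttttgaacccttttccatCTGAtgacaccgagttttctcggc
Snord42a: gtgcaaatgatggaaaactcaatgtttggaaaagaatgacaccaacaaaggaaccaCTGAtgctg

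The deposited table gives 1 FPKM value per group and locus and none for single fetuses. The authors' own test statistics were not used either. No difference below therefore has a replicate check, no test was run, and every fold change is a description of these 3 pooled values. Fold changes are log2 ratios after 0.1 FPKM was added to both groups. A locus was called higher or lower when its mean over the 3 groups was at least 1 FPKM and it passed 1.5-fold. The number of fragments behind a value is not given, so no counting interval was computed.

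Most small RNA genes alone had no signal. Of the 685 loci, 535 (78.1%) were listed at 0 in every group, 49 were above 0 in 1 group, 31 in 2 groups and 70 in all 3. The families differed in these shares. Of the 565 microRNA loci, 485 (85.8%) were at 0 throughout, against 39 of 78 C/D snoRNA loci (50%), 8 of 33 H/ACA snoRNA loci (24.2%) and 3 of 8 scaRNA loci. Of the joined loci, 5 of 80 were at 0 throughout and 73 had a value in all 3 groups. The loci alone were above 0 in 107 cases in the control, in 100 in the unaffected and in 114 in the affected group.

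The position of the gene went together with these shares. By the GENCODE M21 annotation, 563 small RNA genes of loci alone could be placed. Of the 131 that lay outside other genes, 10 (7.63%) were above 0 in any group. Of the 266 in an intron of a host on the same strand, 50 (18.8%) were above 0, and of the 121 overlapping a host exon on the same strand, 60 (49.6%) were. The shares were similar on the opposite strand, with 5 of 28 in an intron (17.9%) and 9 of 17 overlapping an exon (52.9%). Of the 87 placed small RNA genes of joined loci, 74 overlapped an exon of a host on the same strand.

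The level of the host gene was also related to whether an intronic small RNA gene had a value. Where the host had a mean under 1 FPKM, 2 of 49 intronic genes (4.08%) were above 0. The share was 8 of 74 (10.8%) for hosts from 1 to 10 FPKM, 12 of 78 (15.4%) for hosts from 10 to 100 FPKM, and 15 of 26 (57.7%) for hosts of 100 FPKM or more. The families differed in their hosts too, since the median level of the intronic host was 4.23 FPKM for microRNAs, 103 FPKM for C/D snoRNAs and 171 FPKM for H/ACA snoRNAs. Whether reads from host precursor RNA make up these values was not tested.

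**Figure D1:**
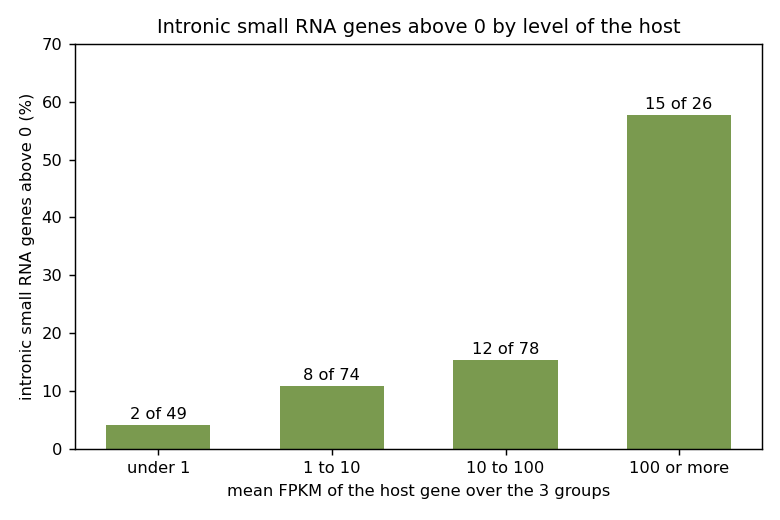
Bars give the percentage of intronic small RNA genes alone with a value above 0 in any group, by the mean FPKM of the host gene on the same strand, with the counts above each bar. The percentage runs from 4.08% for hosts under 1 FPKM to 57.7% for hosts of 100 FPKM or more.

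Joined loci give 1 value for a small RNA gene and the genes named with it. The 5 highest means were those of Rpl13a, Sptssa, Stub1, Sumo2 and Ddx5 with their small RNA genes. The locus of Rpl13a with Snord33 and Mir5121 (chr7:45125558-45128745) stood at 3011 FPKM in the control, 3391 in the unaffected and 2026 in the affected group. Rpl13a encodes a protein of the large ribosomal subunit. Its affected value was the lowest of the 3, with log2 ratios of -0.57 to control and -0.74 to unaffected, past 1.5-fold only in the latter.

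The locus of Sptssa with Mir1892 (chr12:54645374-54656572) stood at 2300, 1496 and 1219 FPKM in the same order of groups. Sptssa encodes a small subunit of serine palmitoyltransferase, the first enzyme of sphingolipid synthesis. Both exposed groups lay past 1.5-fold below control, with log2 fold changes of -0.62 and -0.92. Stub1 with Mir3082, which encodes a ubiquitin ligase that works with chaperones, stood at 1321, 1716 and 1460 FPKM. Sumo2 with Mir684-1 stood at 736, 740 and 680 FPKM, and Ddx5 with Mir3064, an RNA helicase of the Drosha complex, at 540, 554 and 582 FPKM. None of these last 3 passed 1.5-fold in any comparison. The symbol Mir684-1 is carried by 9 loci of the table, so reads of that microRNA gene could be split between copies.

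Of the 80 joined loci, 66 passed the minimum mean of 1 FPKM. In unaffected against control, 6 of them were called higher and 11 lower. Over all 15548 loci that passed the minimum, 2.46% were called higher and 3.08% lower in this comparison. In affected against control, 4 were called higher and 8 lower, beside 3.42% and 3.01% of all loci. In affected against unaffected, 11 were called higher and 8 lower, beside 6.88% and 4.91% of all loci. The median log2 fold change of the 66 loci was -0.04, 0.04 and 0.10 in these 3 comparisons, beside 0.01, 0.02 and 0.01 over all loci. Their centre thus stayed near 0 while single loci lay far from it.

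In all, 27 of the 66 joined loci (40.9%) passed 1.5-fold in at least 1 comparison and 39 in none. Joined loci without a small RNA gene did so in 10 of 160 cases (6.25%), and loci of 1 other named gene in 847 of 12297 (6.89%). The share was not confined to low values, since it was 34.5% of joined loci from 1 to 10 FPKM, 43.5% from 10 to 100 and 50% at 100 FPKM or more. The same bins held 7.48%, 5.43% and 12.6% among loci of 1 other named gene. Among the 27 are loci, marked below, that passed the minimum mean through 1 group only. These shares were set side by side without a test.

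**Figure D2:**
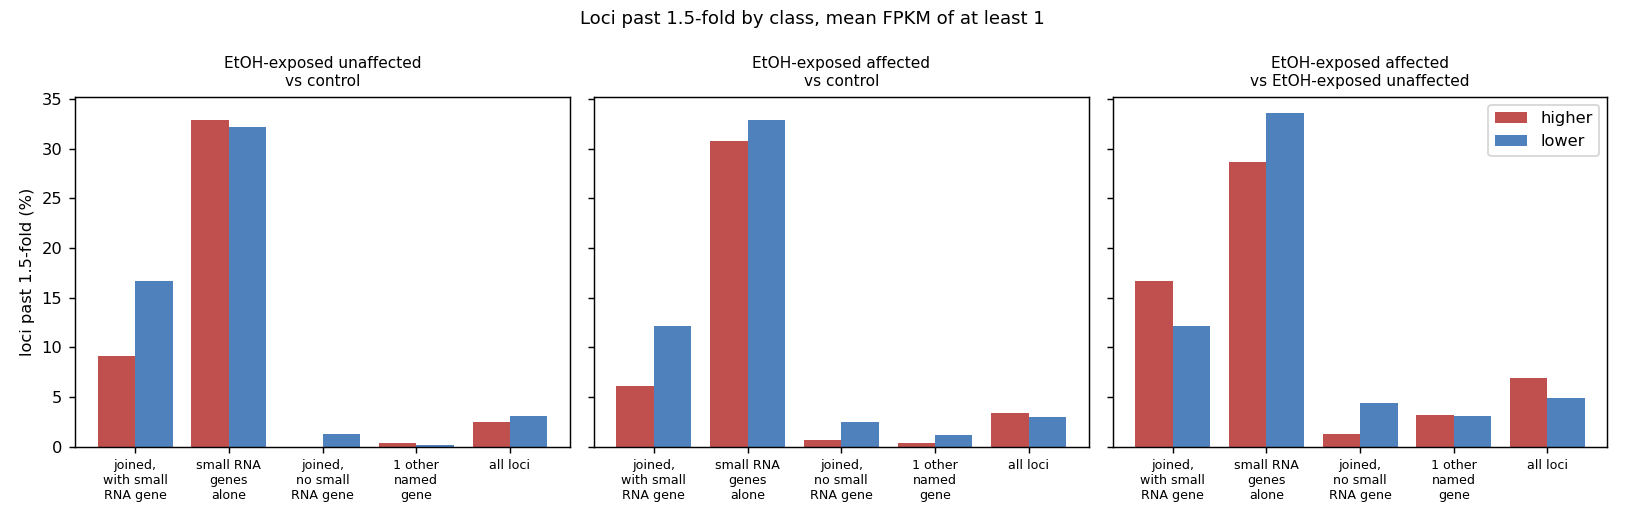
Bars give the percentage of loci called higher or lower by 1.5-fold in each comparison, by class of locus, among loci with a mean of at least 1 FPKM. Loci of small RNA genes alone lie between 28.7% and 33.6% in both directions in every panel, joined loci with a small RNA gene between 6.06% and 16.7%, and the other classes at or below the 6.88% of all loci.

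In 4 joined loci the control stood above both exposed groups, past 1.5-fold against each, while the exposed groups lay within 1.5-fold of each other. The Sptssa locus is one of them. Ercc2 with Mir343 (chr7:19382039-19399856), a DNA helicase of transcription factor TFIIH, stood at 29.0 FPKM in the control, 7.94 in the unaffected and 9.23 in the affected group. Its log2 fold changes against control were -1.85 and -1.64. Tsr1 with Snord91a, a factor of ribosome assembly, stood at 410, 219 and 173 FPKM, with log2 fold changes of -0.90 and -1.25. The noncoding transcript A330023F24Rik with Mir29b-2 and Mir29c (chr1:195017399-195037908) stood at 9.24 FPKM in the control and at 0.24 and 0.20 FPKM in the exposed groups. It passed the minimum only through the control value, so its calls are a description. Loci of this pattern were 7 of the 847 loci of 1 other named gene that passed the fold. No joined locus showed the converse, with the control below both.

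The unaffected group stood apart in 7 joined loci. It was the highest in 4 of them. Prmt2 with Mir678 (chr10:76207222-76237865), an arginine methyltransferase, stood at 204, 351 and 151 FPKM in control, unaffected and affected. Psmb5 with Mir686, a catalytic subunit of the proteasome, stood at 329, 501 and 290 FPKM. The transcript 5730408K05Rik with Mir5136 stood at 17.9, 34.7 and 15.9 FPKM. Igf2bp1 with Mir3063 (chr11:95957164-96005944), an mRNA-binding protein of fetal tissues, stood at 1.73, 5.50 and 2.17 FPKM. In each of these 4 loci the control and affected values lay within 1.5-fold of each other and the unaffected value past 1.5-fold above both.

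The unaffected group was the lowest in the other 3 loci. Rabggtb with Snord45c (chr3:153907287-153912966), a subunit of the enzyme that attaches lipid anchors to Rab proteins, stood at 74.3, 23.2 and 61.0 FPKM. Its log2 fold change was -1.68 for unaffected against control and 1.39 for affected against unaffected. Fam65a with Mir1966 stood at 22.1, 12.6 and 20.7 FPKM. In all 3 loci the control and affected values lay within 1.5-fold of each other.

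The affected group stood apart in 4 joined loci. Pfas with Mir3062, an enzyme of purine synthesis, stood at 3.69, 3.50 and 7.37 FPKM. Nupl1 with Mir719, a protein of the nuclear pore, stood at 368, 339 and 216 FPKM, and the noncoding transcript 1810032O08Rik with Snord1a at 3.67, 3.14 and 1.81 FPKM. Mir1940 with Snora47, which names no host, was listed at 0 in control and unaffected and at 7.90 FPKM in affected. This locus passed the minimum only through the affected value, so its calls are a description. The affected value was the highest in the Pfas and Mir1940 loci and the lowest in the other 2.

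A further 12 joined loci past the fold had no group apart from both others in this way. Rcan3 with Mir700 (chr4:135412309-135433805), a regulator of calcineurin, was higher in each group in turn at 11.3, 17.7 and 28.9 FPKM, with a log2 fold change of 1.35 for affected against control. Mir22hg with Mir22 (chr11:75461539-75466690), the primary transcript of miR-22, was lower in each group in turn at 5.06, 2.89 and 1.03 FPKM, with a log2 fold change of -2.19. The noncoding transcript Dio3os with Mir1247 (chr12:110275385-110278129), which runs antisense beside Dio3, stood at 0.14, 0.34 and 9.95 FPKM. Its unaffected to control ratio was past 1.5-fold only between 2 values under 1 FPKM. The locus passed the minimum only through the affected value, so its calls are a description.

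**Figure D3:**
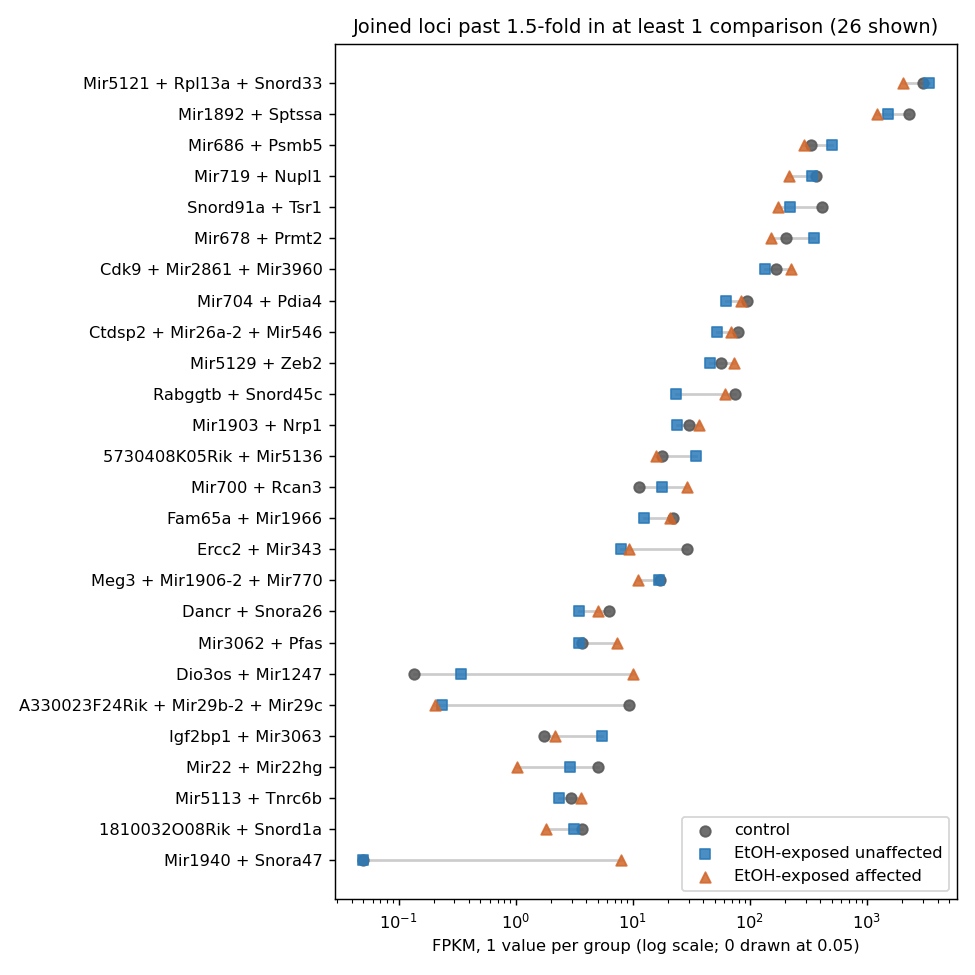
Points give the FPKM of each group, 1 value per group on a log scale, for 26 of the 27 joined loci past 1.5-fold in at least 1 comparison, ordered by mean FPKM, with a line from the lowest to the highest group and values of 0 drawn at the left end. The widest gaps belong to Mir1940 with Snora47, Dio3os with Mir1247 and A330023F24Rik with the miR-29 genes, each with 1 group between 7.90 and 9.95 FPKM and the other 2 groups at or under 0.34 FPKM. Each of these loci passed the minimum mean only through its high group, so its calls are a description.

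Loci of small RNA genes alone were past the fold far more often, in part because of how the minimum mean selects them. Of the 143 that passed it, 47 were called higher and 46 lower in unaffected against control, 44 and 47 in affected against control, and 41 and 48 in affected against unaffected. The percentages over all loci given for the joined loci apply here too. However, 76 of the 143 were at 0 in at least 1 group, so they passed the minimum only through the groups where they had a value and had to differ. Of the 67 with a value in all groups, 52 (77.6%) passed 1.5-fold in some comparison. The median log2 fold change of the 143 loci was 0 in each comparison. Higher and lower values were nearly equal in number in every comparison.

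Values in 1 group only followed the length of the small RNA gene. A RefSeq length was found for 46 of these loci, 14 with their value in the control, 15 in the unaffected and 17 in the affected group. The median value was 88.0 FPKM in 4 genes of 40 to under 60 bases, 30.1 FPKM in 5 genes of 60 to under 70 bases and 22.4 FPKM in 6 genes of 70 to under 80 bases. It was 8.73 FPKM in 14 genes of 80 to under 90 bases and 9.46 FPKM in 6 genes of 90 to under 100 bases. In longer genes it was 4.94 FPKM in 7 genes of 100 to under 120 bases and 2.31 FPKM in 4 genes of 120 to under 150 bases. Across the 46 genes, Spearman's rho between length and value was -0.88, which describes loci that share libraries and the length correction of FPKM.

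The shortest gene had the highest value. Snord42a, of 45 bases in RefSeq and 65 in GENCODE, was listed at 0 in control and unaffected and at 441 FPKM in affected. Snord37, of 53 bases, had 118 FPKM in unaffected only. Among genes of 82 to 88 bases, Mir106b, Mir17, Mirlet7b and Mir93 had 11.2, 8.76, 8.33 and 6.36 FPKM, each in affected only, and Mir25 had 31.4 FPKM in unaffected only. Mir103-1 had 10.3 FPKM and Mir709 10.3 FPKM, both in control only. The lowest value was that of Mir1983, of 132 bases, with 1.30 FPKM in affected only. The longest gene, Snord15a of 148 bases, had 3.41 FPKM, also in affected only.

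Some different genes had the same value to the last digit given. Mir3074-1 and Mir425, both of 85 bases, stood at 7.35 FPKM in affected. Snord53 and Mir1968, both of 68 bases, stood at 20.1 FPKM in affected, and Snord96a and Mir5133, both of 77 bases, at 11.3 FPKM in affected. In the control, Mir677 and Snord55, both of 78 bases, stood at 15.9 FPKM. Another 2 pairs of nearly equal length did so as well. Mir103-1 and Snord35b, of 86 and 87 bases, stood at 10.3 FPKM in the control, and Snora21 and Snora62, of 128 and 130 bases, at 1.46 FPKM in affected. Values at 1 length were not all whole multiples of each other, as 7.35 FPKM for Mir3074-1 and 8.33 FPKM for Mirlet7b at 85 bases in the affected group show, so numbers of fragments were not derived from them.

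**Figure D4:**
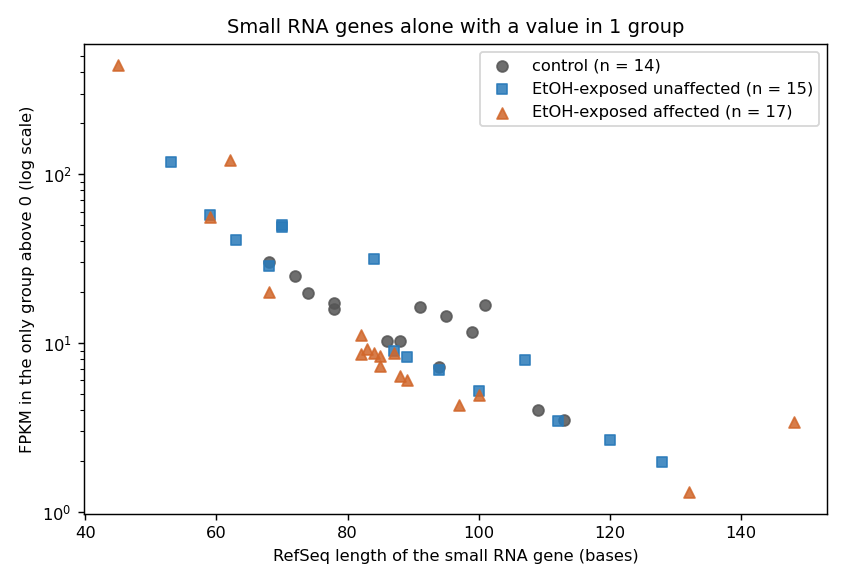
Points give the FPKM, on a log scale, of 46 small RNA genes alone that had a value in 1 group only, against their RefSeq length in bases, with the symbol and colour naming the group. The highest value is 441 FPKM at 45 bases and the lowest 1.30 FPKM at 132 bases, and genes of all 3 groups lie along the slope.

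Values of this size stand beside the differences in some joined loci. The largest difference between groups was 21.0 FPKM in the Ercc2 locus, where small RNA genes alone within 5 bases of the length of Mir343 reached 49.6 FPKM in 1 group only. It was 9.03 FPKM in the A330023F24Rik locus and 9.81 FPKM in the Dio3os locus, beside up to 31.4 FPKM at those lengths. Any locus with values under that level must fall within it, so the share of joined loci that did is not given. In the Rpl13a locus the difference was 1365 FPKM, beside up to 49.6 FPKM in genes with a value in 1 group only. Snord104, a locus alone of 73 bases in RefSeq with a value in every group, differed by up to 878 FPKM. Whether a small RNA gene's own short model sets the value of its joined locus was not tested.

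The highest values among the loci alone belonged to microRNA genes that overlap other genes, and to Snord104. Mir1905 stood at 2118 FPKM in the control, 2032 in the unaffected and 3155 in the affected group. Its gene overlaps an exon of Mex3a on the opposite strand, and the locus of Mex3a had a mean of 45.0 FPKM. Mir762 stood at 1627, 2007 and 1695 FPKM, opposite an exon of Bcl7c at a mean of 23.2 FPKM. Mir707 stood at 519, 712 and 735 FPKM in an exon of Akt1s1 at a mean of 51.8 FPKM, and Mir703 at 1670, 1723 and 1233 FPKM in an intron of Cfap299 on the opposite strand. Whether counting used strand is not given in the sources used here, so reads of a small RNA gene and of an overlapping gene cannot be told apart.

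Snord104 (chr11:106500919-106501213) has 2 rows at the same place, which lies outside other genes in the annotation. The higher stood at 2246, 2553 and 1675 FPKM and the lower at 454, 514 and 297 FPKM. In both, the unaffected value was the highest and the affected value the lowest. The log2 fold change of affected against unaffected was -0.61 in the higher row and -0.79 in the lower, and both were past 1.5-fold. Of the 5 loci with the highest mean, Mir1905 and the higher Snord104 row passed 1.5-fold in a comparison and the other 3 did not.

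The 5 largest rises and falls per comparison among the loci alone were all between a value and 0, and no fold is given for them. Snord68 was listed at 0 in control and at 500.2 FPKM in unaffected and 204 in affected. Snord49a, at 0, 177 and 78.9 FPKM, and Snord12, at 0, 126 and 46.7 FPKM, had the same order. These 3 C/D snoRNAs lie in Rpl13, 2410006H16Rik and Zfas1. Snord52, at 69.2, 0 and 48.3 FPKM, and Snord69, at 69.4, 0 and 55.8 FPKM, had the opposite pattern with the unaffected group at 0. Snord110 had 55.6 FPKM in affected only and Snord2 30.1 FPKM in control only.

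Among microRNAs, Mir1191 stood at 268, 0 and 234 FPKM, Mir1196 at 267, 82.6 and 0 FPKM, and Mir669h at 208, 182 and 0 FPKM. Mir1963 had 57.6 FPKM and Mir1949 49.6 FPKM in unaffected only, and Mir680-3 76.5 FPKM in control only. Scarna17 had 121 FPKM in affected only. Every group was at 0 in some of these loci, and in the 143 loci the control was at 0 in 40, the unaffected in 48 and the affected in 34.

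Small RNA loci alone were then set beside the locus of their host. For 68 of them the host on the same strand was on a locus of its own, or joined with another small RNA, with a mean of at least 1 FPKM. In unaffected against control, 51 of the 68 small RNA loci passed 1.5-fold and 0 of their hosts did. In affected against control the counts were 49 and 2, and in affected against unaffected 42 and 16. A host is counted once for each of its small RNA loci, so these are not numbers of different hosts. Over all loci, 6.88% were called higher and 4.91% lower in affected against unaffected. Among all loci alone, 28.7% to 33.6% were called in each direction. A locus at 0 in 1 group of a comparison and well above 0 in the other passes by construction, so these counts are a description. The sign of the log2 fold change was the same in small RNA locus and host for 32, 34 and 31 of the 68. Loci at 0 in both groups of a comparison have a log2 fold change of 0 and count there as not sharing the sign.

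The 33 of these loci with a value in every group are free of zeros. Of them, 21, 22 and 17 passed 1.5-fold in the 3 comparisons. The host did so in 0, 1 and 9 of the 33 pairs of small RNA locus and host, with a shared host counted in each of its pairs. Their median absolute log2 fold change was 0.77, 0.96 and 0.64 in the 3 comparisons, beside 0.13, 0.35 and 0.45 for their hosts. Of the 33, 19, 18 and 20 had the sign of their host. Several of them share a host, so they are not independent of each other.

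**Figure D5:**
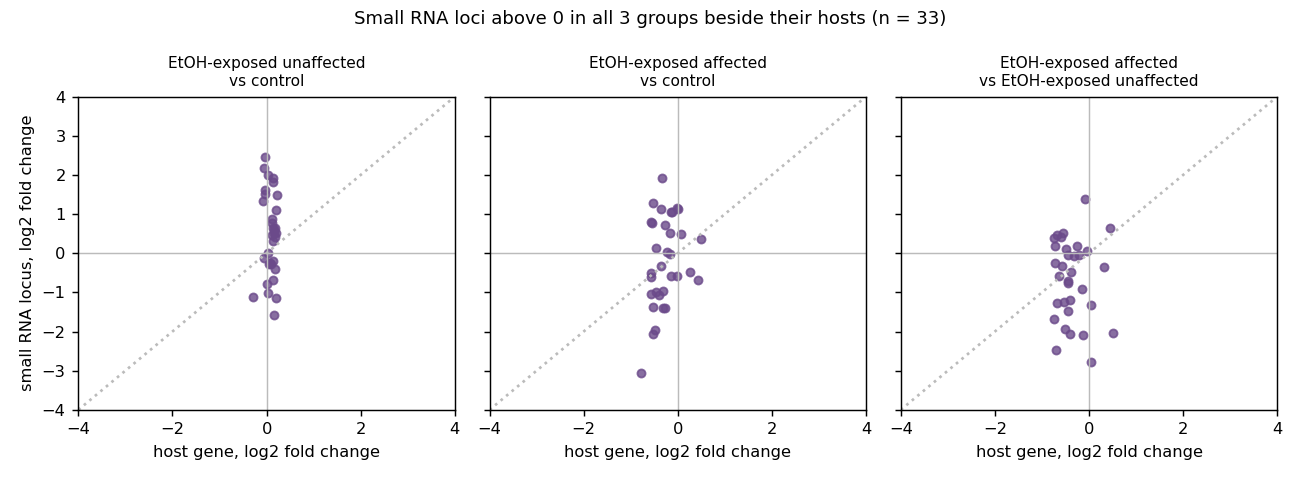
Points give the log2 fold change of 33 small RNA loci alone with a value in every group, against that of the host gene on the same strand, in each of the 3 comparisons, with a dotted line where both would be equal. The small RNA loci spread from about -3 to 2.5, whereas the hosts stay within 1 of 0.

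Rpl13a, whose locus was lower in affected, also holds Snord32a, Snord34 and Snord35a in its introns. Snord32a stood at 56.0, 88.2 and 27.3 FPKM in control, unaffected and affected, an order like that of Rpl13a. Snord34 stood at 72.9, 97.2 and 128 FPKM, with its highest value in affected, and Snord35a at 0, 16.4 and 6.88 FPKM. The 3 intronic snoRNAs of this host thus had 3 different orders of the groups.

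The noncoding host 2410006H16Rik stood at 164, 187 and 113 FPKM and holds 3 C/D snoRNAs. Snord65 stood at 170, 363 and 410 FPKM, highest where the host was lowest. Snord49b stood at 88.1, 40.1 and 33.7 FPKM, and Snord49a, described above, was at 0 in the control. In Gas5, a growth-arrest transcript without a protein product, the joined locus with Mir5117 stood at 225, 250 and 200 FPKM. Snord47 in the same gene stood at 232, 348 and 329 FPKM, and its unaffected value lay just past 1.5-fold above control while its affected value did not.

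The hosts of snoRNAs showed a more even pattern than the snoRNAs. In a list of translation genes, 29 loci host a placed snoRNA, 1 of them the joined Rpl13a locus. Their median log2 fold change was 0.13 in unaffected against control, -0.36 in affected against control and -0.51 in affected against unaffected. In the last comparison 7 of the 29 were called lower and 1, the initiation factor gene Eif4g1, higher, beside 4.91% and 6.88% of all loci. Rps12 stood at 2969, 3218 and 1997 FPKM and Rpl27a at 9863, 9855 and 6840 FPKM. Of the 40 snoRNA loci alone inside these hosts, 31 passed the minimum. Of the 31, 16 were called higher and 7 lower in unaffected against control, 13 and 11 in affected against control, and 5 and 14 in affected against unaffected. Among all loci alone, 28.7% to 33.6% were called in each direction.

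The 7 loci of snoRNA hosts without a protein product had medians of 0.06, -0.35 and -0.51 in the same comparisons. Snhg6 stood at 131, 136 and 88.2 FPKM and Snhg1 at 64.5, 65.5 and 43.4 FPKM, both with the affected value lowest. The joined locus of Dancr with Snora26 stood at 6.20, 3.44 and 5.06 FPKM, with the unaffected value lowest. When 11562 loci of 1 other named gene were split into 5 equal classes of transcript length, the median log2 fold change of affected against unaffected was -0.14 in the shortest class, with a median of 654 bases, and 0.21 in the longest, with a median of 3619 bases. The median of -0.51 of the hosts lay below that of the shortest class. The part of transcript length in the values of the hosts was not tested.

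Among the microRNAs of a list known for the brain, most hairpins had no value of their own. Of 61 loci, 44 were at 0 in every group and 16 passed the minimum. The transcripts that hold miR-9 and miR-124 genes had similar values in the 3 groups, unlike the miR-29 locus described above, which is also in the list. C130071C03Rik with Mir9-2 (chr13:83715266-83742667) stood at 38.7, 37.9 and 36.5 FPKM, and a locus of Mir9-1 at 22.7, 22.9 and 21.0 FPKM. A second row of Mir9-1 had 6.07 FPKM in affected only. The locus 2610100L16Rik with Mir124a-2 stood at 9.44, 8.69 and 8.69 FPKM, A930011O12Rik with Mir124a-1 and Mir3078 at 10.4, 10.9 and 7.90 FPKM, and Mir124a-3 at 1.82, 1.89 and 1.94 FPKM. None of these loci except the second Mir9-1 row passed 1.5-fold in any comparison.

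A few hairpins of the same list, on short loci of their own, had a value in 1 or 2 groups and were at 0 in the rest. They passed the minimum mean through the groups with a value, so their difference was fixed by the filter and is a description. Mir132 (chr11:75173682-75173747) stood at 34.4, 0 and 30.5 FPKM, and its neighbour Mir212 had 16.4 FPKM in control only. Mir138-2 stood at 26.6, 0 and 16.4 FPKM, and Mir138-1 had 11.7 FPKM in control only. Mirlet7e stood at 15.1, 0 and 11.5 FPKM, Mirlet7c-2 had 14.5 FPKM in control only, and Mirlet7a-1 6.88 FPKM in unaffected only. In Mir132, Mir138-2 and Mirlet7e the unaffected group was at 0. The affected value was within 1.5-fold of control in Mir132 and Mirlet7e and past 1.5-fold below it in Mir138-2. In unaffected against control, 2 of the 16 loci were called higher and 7 lower, in affected against control 2 and 5, and in affected against unaffected 5 and 2. Most of these are loci alone, a class in which 28.7% to 33.6% were called in each direction, so the counts are not read as a result about brain microRNAs.

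Of 17 loci of microRNA clusters tied to the cell cycle, 11 were at 0 in every group. The host transcript Mir17hg with Mir19b-1 stood at 0.77, 0.80 and 0.66 FPKM and the noncoding transcript with Mir322, Mir351 and Mir503 at 0.64, 0.60 and 0.61 FPKM. Mcm7, a replication helicase gene that holds Mir25, Mir93 and Mir106b, stood at 55.1, 60.2 and 58.4 FPKM. The 3 hairpins each had a value in 1 group only, Mir25 in unaffected and the others in affected. Of 18 loci of microRNAs known from other tissues, 16 were at 0 in every group. The exceptions were Mir1a-2, of muscle, with 24.9 FPKM in control only, and the locus with the leukocyte microRNA gene Mir223, at or under 0.01 FPKM in every group.

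The imprinted region on chromosome 12 gave values mainly through its long noncoding transcripts. Meg3 with Mir770 and Mir1906-2 stood at 17.2, 16.6 and 11.2 FPKM, with a log2 fold change of -0.62 for affected against control. Mirg with 4 microRNA genes stood at 1.07, 1.20 and 0.67 FPKM, under the minimum mean, and Rian, on a locus that holds no symbol of the rule, at 177, 177 and 116 FPKM. In all 3 transcripts the affected value was the lowest and the control and unaffected values were close. Dio3os with Mir1247, further along the same chromosome, had its highest value in affected, as given above. Of 29 small RNA loci alone inside the 6 imprinted hosts counted here, 1 was above 0 in any group. Of the 29, 15 lie in Sfmbt2, which is outside this region. The imprinted gene Rtl1 is not among the 6 and has 4 small RNA loci. Of these, 1 was above 0, Mir434, with 7.24 FPKM in control only.

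Of 23 loci of genes that process microRNAs, 21 passed the minimum, and 3 of the 23 are joined loci described here, those of Ddx5, Dgcr8 and Tnrc6b. Dgcr8 with Mir1306 stood at 15.8, 16.0 and 16.2 FPKM, and Drosha at 44.6, 40.2 and 52.3 FPKM. Dicer1 stood at 7.54, 6.77 and 10.1 FPKM. The median log2 fold change was -0.11, 0.20 and 0.34 in the 3 comparisons, beside 0.01, 0.02 and 0.01 over all loci. Among loci of 1 other named gene, the medians were -0.07, 0.15 and 0.21 in the longest class of transcript length. In the shortest class the medians were 0.06, -0.07 and -0.14. The part of transcript length in the values of the genes of this paragraph was not tested. In affected against unaffected 3 of the 21, Tnrc6c, Tnrc6b and Eif2c2, were called higher and 0 lower, beside 6.88% and 4.91% of all loci. Tnrc6b with Mir5113 stood at 2.94, 2.34 and 3.59 FPKM. Lin28b, which blocks let-7 maturation, was called lower in both exposed groups, at 1.58 FPKM in control, 0.83 in unaffected and 0.72 in affected. Both exposed values are under the minimum of 1 FPKM, so the locus passed only through the control value and the call is a description. Of 21 genes of snoRNA-protein particles, 0 were called in either comparison with control and 1 was lower in affected against unaffected, with medians of 0.11, -0.05 and -0.17.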

How the data were processed

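RNA-seq was measured in 9 fetuses in 3 groups of 3. The authors made TruSeq RNA libraries with 50-base paired reads and aligned them to mm10 (Bowtie with TopHat and STAR are both named, and the submitters' processing notes give Bowtie2 2.2.4.0). The authors' Cufflinks suite then gave the deposited FPKM, scaled to exon length and mapped fragments, with 1 value per group and locus and 0 columns for single fetuses. Fragment numbers and depth per library are not given in the sources used here. The table's columns of the authors' own comparisons, which hold log2 fold changes, test statistics, p-values and q-values, were not used. Because no values per fetus were given, the differences were described and not tested.

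Fold changes were log2 ratios with a pseudocount of 0.1 FPKM, and called loci had a mean of at least 1 FPKM and passed 1.5-fold. The call rule was tested on simulated data with levels of at least 5 FPKM and no values of 0. That test does not cover loci near the minimum mean or at 0 in a group. Named loci were, for joined loci and for loci alone, the 5 largest rises and falls per comparison and the 5 highest means, with members of the lists as examples. Loci named for an identical value, a length or a shared host were chosen after their values were seen. Some single genes under this rule are not reported here. Mir1247, which the list's wildcard for Mir124 also takes, was left out of the brain list. The loci and the lists were chosen with earlier results of these data known. Locus coordinates are on mm10 and span the authors' whole locus, and 456 of the 765 loci share that span with another row. Small RNA genes were placed with GENCODE M21, and lengths and sequences came from RefSeq (GRCm38.p6), where 483 of 629 microRNA symbols had a hairpin. Transcript lengths were found for 94.0% of the loci of 1 other named gene. Python 3.11 and pandas were used.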

Additional observations from a re-analysis of the deposited data

How the results depend on the processing

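No paired analysis was possible because the table holds no values of single fetuses, and leaving out a fetus was not possible for the same reason. The 12 results, a count of calls in each direction and a median for each class in each comparison, were recomputed with a pseudocount of 1 or 0.01 FPKM, a minimum mean of 5 FPKM or none, a fold of 2, centring on the median of all loci, without loci under 300 bases, and on joined loci with exactly 1 host symbol. Of the recomputed counts, 39 of 48 stayed within 1.5 times the main count. With a minimum of 5 FPKM, the calls of affected against control were 29 higher and 36 lower in place of 48 and 55, and those of affected against unaffected 31 higher in place of 52. Fewer loci (145 in place of 209) were counted there. The called joined loci of Pfas, Dio3os, A330023F24Rik, Igf2bp1, Mir22hg, Tnrc6b, 1810032O08Rik, Dancr and Mir1940 with Snora47 have means under 5 FPKM and lose their calls at this minimum. On the 65 joined loci with 1 host, which leaves out all loci alone, the calls were 6 higher and 11 lower in unaffected against control, 3 and 8 in affected against control, and 10 and 8 in affected against unaffected. Pseudocount, centring and the fold of 2 were also applied to single named joined loci, where they could not show a change of sign, since the centring shift was at most 0.02 and a pseudocount keeps the sign. Of 116 values, 10 were no longer past the fold, 9 of them at a fold of 2. The other was Dio3os with Mir1247 in unaffected against control, at 0.24 with a pseudocount of 1 FPKM.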
